A study of Mus musculus with 54 samples.

Results

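The 9 genes described here encode the CREB family of transcription factors (*Creb1*, *Crem*, *Atf1*), the CREB-regulated transcription coactivators (*Crtc1*, *Crtc2*, *Crtc3*) and the salt-inducible kinases (*Sik1*, *Sik2*, *Sik3*). They were taken by gene symbol from the 30031 genes of a table of RNA-seq read counts, in which all 9 were present. The RNA came from the laser-captured suprachiasmatic nucleus (SCN), the hypothalamic nucleus that holds the principal circadian clock. It was taken from male C3H/HeH mice aged 10 to 12 weeks, labelled wild type (WT) and with no drug named. The mice were kept in 12 hr of light and 12 hr of dark and were housed singly for the last 7 days. Tissue was taken at zeitgeber time (ZT, hours after lights on) 2, 6, 10, 14, 18 or 22. Each timepoint has 3 biological replicates (A, B and C), each a pool of 5 mice sequenced on 3 lanes, so an SD is the spread between pools and not between mice. Because the tissue was bulk, fewer cells of a type and less RNA per cell cannot be told apart.

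In the SCN, light at night releases glutamate and PACAP onto neurons and raises calcium and cyclic AMP, which lead to phosphorylation of CREB. Phosphorylated CREB on the cyclic AMP response element (CRE) recruits the acetyltransferases CBP and p300, while the CRTC coactivators bind CREB when they are dephosphorylated and enter the nucleus. The salt-inducible kinases phosphorylate the CRTCs and keep them in the cytoplasm. *Sik1* is itself a CREB target, so that its product closes a negative feedback loop, and SIK1 is known to limit the shift of the clock after a light pulse. *Crem* also gives rise to the short repressor ICER from an internal promoter, and counts per gene do not separate it from the longer forms. Most of these proteins are controlled by phosphorylation, which RNA levels do not show.

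Total counts on genes ran from 15412981 reads in ZT18 replicate C, the shallowest library, to 35820945 reads in ZT14 replicate A. On a principal component plot the 18 libraries stood apart as 3 clusters, one of ZT2 and ZT22, another of ZT6 and ZT10, and the last of ZT14 and ZT18, which accounted for 93.3% of the variance along the first component. Every timepoint lay wholly in a single cluster. When timepoints of different clusters are compared, time of day therefore cannot be told apart from whatever else separates the clusters. The paper describes its own principal component plot as separated by timepoint and sequencing batch, and holds any batch effects to be minimal. The defining markers of SCN neurons were present, with a summed level of 1142 to 4756 CPM (counts scaled to the library total) over 6 genes, highest at ZT6 and ZT10 (3433 to 4756). Of these 6 genes 5 passed the time test described below, so their sum can change without a change in the number of SCN cells. The other cell types also varied between clusters. Oligodendrocyte markers summed to 4355 to 5650 CPM at ZT14 and ZT18 and to 1143 to 3942 CPM elsewhere, astrocyte markers to 1268 to 1758 CPM at ZT6 and ZT10 and to 1904 to 3923 CPM elsewhere, and microglial markers to 80.7 to 137 and 137 to 238 CPM. Markers of endothelial cells (36.6 to 94.3 CPM), of neighbouring hypothalamic nuclei (16.8 to 86.8 CPM) and of telencephalic excitatory neurons (11.7 to 205 CPM) were lower, and no marker was at 0 in all libraries. Sums also differed inside a cluster. Those of telencephalic excitatory neurons were 79.8 to 180 CPM at ZT14 and 22.6 to 59.0 CPM at ZT18. They were 49.8 to 205 CPM at ZT22 and 35.5 to 77.1 CPM at ZT2, and 11.7 to 15.8 CPM at ZT6 and 27.4 to 50.2 CPM at ZT10. Endothelial and neighbouring hypothalamic markers were instead lower at ZT14 (55.4 to 75.3 and 21.9 to 29.9 CPM) than at ZT18 (81.9 to 94.3 and 32.6 to 86.8 CPM). The part of these markers in the results below was not tested.

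The promoters of *Atf1* and *Sik3* are shown because both genes were highest at ZT6 and both hold the CRE core TGACG, and that of *Crtc1* because its reads were few at ZT2 and ZT22. They are the bases upstream of the annotated genes, from RefSeq on GRCm38.p6, on the strand of the gene and 5′ to 3′, with capitals marking TGACG (or its reverse complement CGTCA). *Atf1* lies on chromosome 15 (chr15:100227609-100227818, + strand), *Sik3* on chromosome 9 (chr9:46012570-46012819, + strand) and *Crtc1* on chromosome 8 (chr8:70439580-70439823, − strand).
Atf1: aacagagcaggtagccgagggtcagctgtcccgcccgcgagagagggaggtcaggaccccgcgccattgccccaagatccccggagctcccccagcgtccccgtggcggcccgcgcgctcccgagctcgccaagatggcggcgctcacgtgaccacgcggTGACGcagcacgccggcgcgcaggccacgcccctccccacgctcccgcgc
Sik3: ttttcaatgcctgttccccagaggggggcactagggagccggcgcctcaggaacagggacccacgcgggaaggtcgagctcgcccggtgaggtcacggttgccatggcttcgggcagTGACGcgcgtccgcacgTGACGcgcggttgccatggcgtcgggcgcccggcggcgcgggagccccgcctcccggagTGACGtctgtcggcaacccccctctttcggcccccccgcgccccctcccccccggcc
Crtc1: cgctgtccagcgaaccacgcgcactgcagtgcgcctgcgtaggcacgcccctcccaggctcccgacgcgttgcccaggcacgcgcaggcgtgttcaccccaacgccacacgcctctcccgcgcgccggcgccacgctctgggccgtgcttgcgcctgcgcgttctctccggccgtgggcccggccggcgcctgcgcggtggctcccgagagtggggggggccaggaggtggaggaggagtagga
*Sik3* has 3 copies of the core, *Atf1* has 1 and *Crtc1* has none. Windows of 300 bases (250 before and 50 after the start) were listed for 6 of the 9 genes, and the core was found in those of *Atf1*, *Sik3* and *Sik2* on either strand, against 20.8% of the 32851 windows of all genes. The full palindrome TGACGTCA, which contains the core, was in none of the 6 windows (1.79% of all windows), the E-box CACGTG bound by CLOCK and BMAL1 was in those of *Atf1* and *Sik3* (7.15%), and the D-box TTATGTAA was in none (0.938%). The 6 windows had 69.0% to 80.0% GC, against a median of 52.7% over all windows, and the part of base composition in these counts was not tested. No window was listed for *Sik1*, *Crtc2* or *Crem*. *Crtc3* had its highest mean at ZT6 without the core in its window, and *Sik2* at ZT14 with it, though neither passed the time test described below. Whether the core bears on these levels was not tested.

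The first comparison asked which of the genes changed over the day, by a quasi-likelihood F-test (edgeR) across all timepoints, with a Benjamini–Hochberg adjusted p under 0.05 over the 18941 genes tested. *Crem*, *Atf1*, *Crtc1*, *Sik1* and *Sik3* passed (5 of 9), while *Creb1*, *Crtc2*, *Crtc3* and *Sik2* did not. Over all genes tested 44.0% passed, and among the genes with a mean of 5 CPM or more 63.2%, against 5 of the 8 members at that level (62.5%). The share among the members was thus near the background. The same 5 members also passed JTK_CYCLE, a rank test for a cosine with a period of 24 hr, and so were called cycling, as were 29.8% of all genes tested. The best-fitting peaks were ZT2 for *Crem*, ZT6 for *Atf1*, *Sik1* and *Sik3*, and ZT14 for *Crtc1*. With the offset for GC content described below, that of *Crem* was ZT6 and the others kept theirs. All 5 still passed the time test when any 1 of the 18 libraries was left out, and also without ZT2 and ZT22. Each of these fits still compares whole clusters, so none of them separates time of day from cluster.

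**Figure D1:**
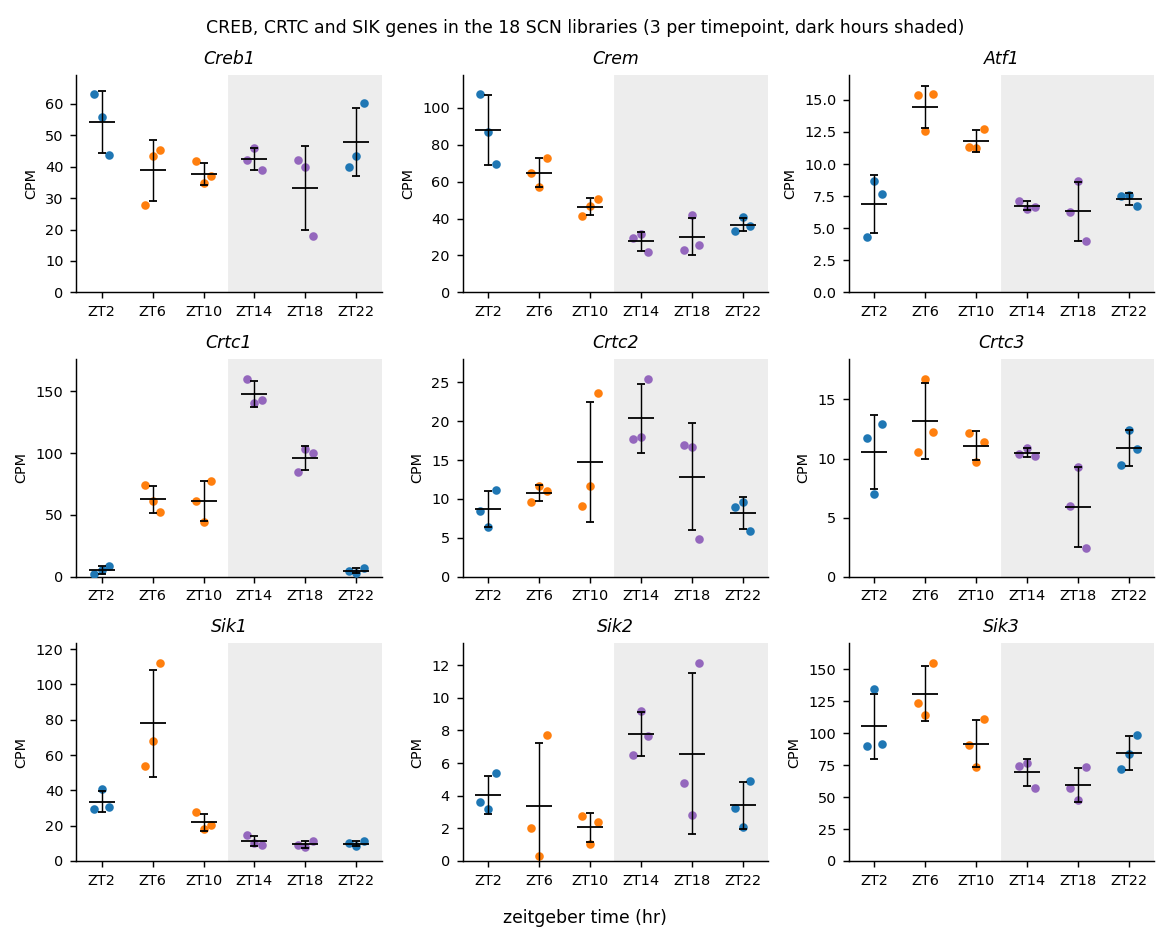
Level of each gene in CPM (vertical axes, from 0) at the 6 timepoints, with 1 point per library, bars for the mean and SD of 3 libraries, colours for the 3 clusters of libraries and grey for the dark hours. *Sik1* was highest in the 3 libraries at ZT6, *Crem* had its highest mean at ZT2, and *Crtc1* fell from 140 to 160 CPM at ZT14 to under 10 CPM at ZT2 and ZT22.

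*Sik1*, the feedback kinase of the CREB pathway (chr17:31844250-31855804, − strand), was high by day and low by night. Its replicates A, B and C had 53.7, 67.8 and 112 CPM at ZT6, in the middle of the day. At ZT2 they had 29.6, 40.6 and 30.8 CPM, and at ZT10 27.5, 17.9 and 20.1 CPM. All libraries of the 3 daytime timepoints lay above all those of the night, when levels were 14.5, 10.3 and 9.24 CPM at ZT14, 8.99, 7.81 and 11.5 CPM at ZT18, and 10.1, 8.30 and 11.3 CPM at ZT22. The change with time had an adjusted p of 3.26e-07, and ZT6 was 8.27-fold above ZT18 (log2 3.05 ± 0.31 SE, adjusted p = 6.79e-06). In the order of means, ZT6 was above ZT2 (adjusted p = 0.00318) and ZT10 above ZT14 (adjusted p = 0.0303), while ZT2 and ZT10 did not overlap but were not called different (adjusted p = 0.114). ZT14, ZT22 and ZT18 overlapped.

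The design allows 3 comparisons of timepoints that lie in the same cluster, and these ask what changed within the day, within the night and across lights on. Together they were tested with 1 F-test, which 0.116% of all genes passed. *Sik1* was the 1 member that passed it (adjusted p = 0.00492), and it did so in all 18 fits that left out a library. Its level was 3.57-fold higher at ZT6 than at ZT10 (log2 1.83 ± 0.29 SE, adjusted p = 0.0228), a comparison that 0.0475% of all genes passed. It was also 3.40-fold higher at ZT2 than at ZT22 (log2 of ZT22 minus ZT2 −1.77 ± 0.29 SE, adjusted p = 0.0394), as 0.0317% of all genes were different there. In both comparisons the 3 libraries of one timepoint lay above the 3 of the other. The summed level of the SCN neuron markers was 3909 to 4756 CPM at ZT6, 3433 to 4049 CPM at ZT10, 1522 to 2733 CPM at ZT2 and 1822 to 2282 CPM at ZT22. The single calls were near the threshold. The first was lost without ZT6 replicate B or C or any ZT10 library (adjusted p 0.0510 to 0.167), and the second without any of the 6 libraries compared, ZT6 replicate B, ZT10 replicate A or C, or ZT14 replicate B (adjusted p 0.0518 to 0.338). Both were also lost with the replicate letter as a block (adjusted p = 0.0583 and 0.0623) and in fits of only the 6 libraries compared (adjusted p = 0.552 and 0.0816).

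**Figure D2:**
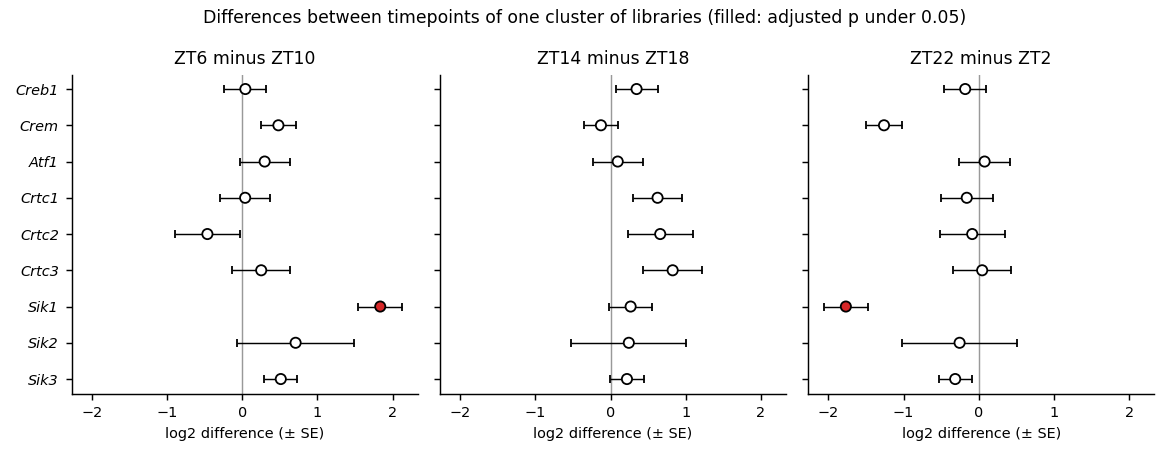
Log2 difference (horizontal axes, ± SE of the fit to 18 libraries) between the timepoints of each cluster for the 9 genes, with filled points for an adjusted p under 0.05. *Sik1* was at 1.83 for ZT6 minus ZT10 and −1.77 for ZT22 minus ZT2, *Crem* was at −1.26 for ZT22 minus ZT2 without passing, and no member passed between ZT14 and ZT18.

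*Crem*, which encodes the cyclic AMP response element modulator, had means that fell from ZT2 to ZT10 and were lower at night. Its replicates had 107, 87.0 and 69.6 CPM at ZT2, then 64.5, 56.9 and 72.7 CPM at ZT6 and 41.5, 47.0 and 50.7 CPM at ZT10. At night it had 29.2, 31.6 and 21.9 CPM at ZT14, 22.9, 41.7 and 25.8 CPM at ZT18, and 33.5, 40.6 and 36.1 CPM at ZT22. Libraries from ZT2 and ZT6 overlapped with each other and lay above all the others. Neither ZT2 against ZT6 (adjusted p = 0.148) nor ZT6 against ZT10 (adjusted p = 0.464) passed. ZT2 was 3.19-fold above ZT14 (log2 1.67 ± 0.24 SE), and the time test gave an adjusted p of 4.59e-05. Across lights on *Crem* differed in the same direction as *Sik1*, with ZT22 at log2 −1.26 ± 0.23 (SE) relative to ZT2, without overlap of the libraries, but the adjusted p of 0.0731 missed the threshold. It passed in 6 alternative fits, among them DESeq2 (adjusted p = 0.000232, with 0.175% of all genes called) and edgeR without ZT18 replicate B (0.0346) or C (0.0445).

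The night comparison of ZT14 with ZT18, which 0.570% of all genes passed, called 0 of the 9 members with edgeR and 0 with DESeq2 (4.06% of all genes). At an unadjusted p under 0.05 it had 1 member, *Crtc3* (10.5 ± 0.37 CPM at ZT14 and 5.89 ± 3.41 CPM at ZT18, SD, n = 3, adjusted p = 0.363). Genes with peaks at both ZT14 and ZT22 are a subject of the study. The average of ZT14 and ZT22 was therefore set against that of ZT18 and ZT2, in which the clusters of ZT14 and ZT18 and of ZT2 and ZT22 each stand on both sides, and 0.148% of all genes passed. No member passed with edgeR, although *Crem* and *Sik1* had an unadjusted p under 0.05, at log2 −0.69 ± 0.16 (SE, adjusted p = 0.0763) and −0.75 ± 0.20 (adjusted p = 0.125). Both differences were in the direction of less RNA at ZT14 and ZT22, and both passed with DESeq2 (adjusted p = 0.00501 and 0.0180), which called 2.22% of all genes.

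*Creb1*, the founding member of the family, and *Atf1*, which dimerises with it, followed other courses than *Crem*. *Creb1* ranged from 17.8 CPM (ZT18 replicate C) to 63.0 CPM (ZT2 replicate A), its means from 33.3 ± 13.4 CPM at ZT18 to 54.2 ± 9.75 CPM at ZT2, and neighbouring timepoints in this order overlapped throughout (adjusted p of the time test 0.285). *Atf1* had 15.4, 12.6 and 15.4 CPM at ZT6 and 11.3, 11.2 and 12.7 CPM at ZT10. It had 4.35, 8.65 and 7.63 CPM at ZT2, 7.14, 6.47 and 6.68 CPM at ZT14, 6.24, 8.67 and 4.03 CPM at ZT18, and 7.50, 7.60 and 6.70 CPM at ZT22. Thus all 6 libraries of the ZT6 and ZT10 cluster lay above the other 12, and the timepoints inside each cluster overlapped. ZT6 was 2.28-fold above ZT18 (log2 1.19 ± 0.34 SE), with an adjusted p of 0.0183 over the 6 timepoints. The differences inside the clusters did not pass (adjusted p = 0.958).

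Per kilobase of exon, *Crem* was the most abundant of the 3 CREB genes at every timepoint. It had 14.9 ± 3.19 CPM per kb at ZT2 against 3.94 ± 0.71 for *Creb1* and 2.25 ± 0.73 for *Atf1*. Its share of the family's summed level per kb went from 70.3% ± 4.23 at ZT2 to 46.7% ± 3.62 at ZT14 (SD, n = 3). These shares use the length of all annotated exons joined, so a gene that mainly uses short forms is understated. In CPM, without division by length, *Creb1* had a higher mean than *Crem* at ZT14 (42.4 against 27.6), ZT18 (33.3 against 30.1) and ZT22 (47.8 against 36.7), and *Crem* at the other timepoints.

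**Figure D3:**
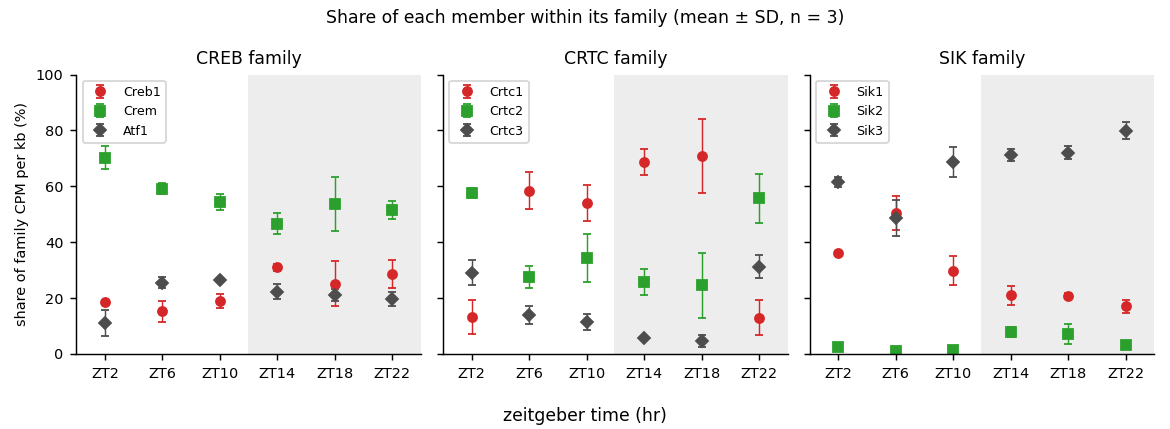
Share of each gene in the summed CPM per kb of its family (vertical axis, %) at the 6 timepoints, as mean ± SD of 3 libraries with dark hours in grey. By this measure *Crem* led its family throughout, *Crtc1* made up 54.1% to 70.8% of the CRTC genes at ZT6 to ZT18 but 13.2% at ZT2, and *Sik1* rose to 50.4% of the SIK genes at ZT6.

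*Crtc1*, the coactivator that predominates in neurons, had the widest range of the 9 genes. It had 160, 140 and 143 CPM at ZT14 and 84.7, 103 and 99.8 CPM at ZT18. By day it had 74.4, 61.0 and 52.8 CPM at ZT6 and 61.6, 44.5 and 77.2 CPM at ZT10. At ZT22 it had 4.64, 3.38 and 6.99 CPM, and at ZT2 2.43, 5.12 and 9.06 CPM, which rested on 43 to 235 reads per library. All 6 libraries of ZT2 and ZT22 therefore lay below the lowest of the other 12 (44.5 CPM), as did those of 11.6% of the genes with a mean of 5 CPM or more. ZT14 was 29.5-fold above ZT22 (log2 4.88 ± 0.39 SE) and the time test had an adjusted p of 4.52e-08. Inside the clusters the 3 differences of *Crtc1* did not pass (adjusted p 0.430 for ZT14 against ZT18, 0.991 for ZT6 against ZT10 and 1 for ZT22 against ZT2), although the libraries of ZT14 all lay above those of ZT18. Without ZT2 and ZT22 the time test still passed (adjusted p = 0.00229), but there the ZT6 and ZT10 cluster is set against that of ZT14 and ZT18.

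Low levels at ZT2 and ZT22 were shared by many genes around *Crtc1* (chr8:70382355-70439579, − strand). Within 250 kb on either side 23 genes were tested, 18 of them with a mean of 5 CPM or more, and in 11 of these 18 the 6 libraries of ZT2 and ZT22 were all below the other 12. *Upf1*, a helicase of nonsense-mediated decay and the nearest of the 18 on one side, had 3.80 CPM over the ZT2 and ZT22 libraries (2.09 to 5.47) and 49.7 CPM over the others (25.7 to 85.7). *Klhl26*, on the other side, had 7.98 CPM (4.01 to 11.5) and 66.8 CPM (22.4 to 117). The others were *Tmem161a*, *Slc25a42*, *Sugp2*, *Tmem59l*, *Rex1bd*, *Fkbp8*, *Isyna1*, *Ssbp4* and *Lsm4*, with *Rex1bd* going from 162 CPM down to 2.42 CPM and *Lsm4* from 61.1 down to 3.05 CPM. In the other 7 the ranges overlapped. *Kxd1*, a lysosome-positioning factor, had 629 to 830 CPM at ZT2 and ZT22 and 262 to 910 CPM elsewhere, and *Cope*, a coat protein of Golgi vesicles, had 99.3 to 361 and 200 to 414 CPM. *Borcs8*, *Armc6*, *Ddx49*, *Ell* and *Pgpep1* overlapped as well. Around the other 8 members the same count was 3 of 12 neighbours for *Crtc2*, 1 of 3 for *Sik1* and 0 for the rest.

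**Figure D4:**
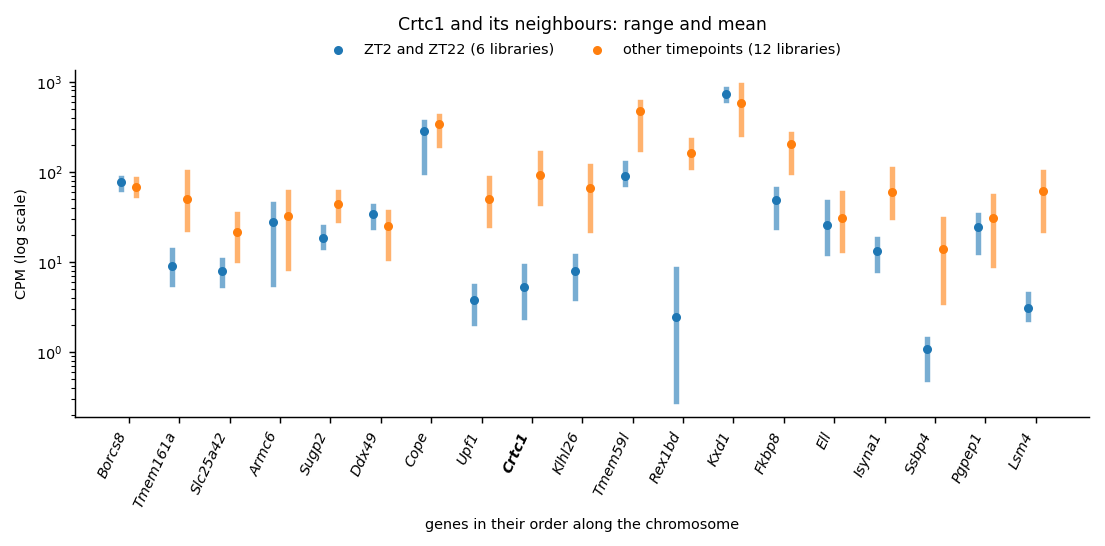
Range (bars) and mean (points) of CPM on a log axis in the 6 libraries of ZT2 and ZT22 and in the 12 others, for *Crtc1* and its 18 neighbours with a mean of 5 CPM or more, in chromosomal order. In *Crtc1* and 11 neighbours the ranges did not overlap, while in *Kxd1*, *Cope* and 5 others they did.

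Base composition moved with these clusters as well. Among genes with a mean of 5 CPM or more, the quintile with the highest GC content of the longest transcript (above 55.1%, 2228 genes) had a median log2 deviation from each gene's own mean of −0.69 at ZT2 and −0.46 at ZT22, while the quintile with the lowest (up to 43.7%, 2228 genes) had 0.21 and 0.15. *Crtc1* has 56.5% GC. The 931 genes within 1 percentage point of it had medians of −0.43 at ZT2 and −0.22 at ZT22, against −2.74 and −2.75 for *Crtc1* itself. With an offset for GC content the difference of mean log2 CPM between ZT14 and ZT22 was 4.21, compared with 4.92 without it. The neighbours within 250 kb had a median GC of 57.0%. Oligodendrocyte markers, given above, were also highest at ZT14 and ZT18, and summed to 1933 to 3942 CPM at ZT2, 1143 to 2792 CPM at ZT6, 1505 to 1873 CPM at ZT10 and 1999 to 2624 CPM at ZT22, and their part in the levels of *Crtc1* was not tested.

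*Crtc2* and *Crtc3* encode the coactivators found more widely in the body, and both were low in CPM here. Per kilobase of exon *Crtc2* had a mean of 3.08 CPM over the 18 libraries, as did *Creb1*. *Crtc2* ranged from 4.88 CPM (ZT18 replicate C) to 25.5 CPM (ZT14 replicate C), with means from 8.18 ± 2.02 CPM at ZT22 to 20.4 ± 4.44 CPM at ZT14. It passed JTK_CYCLE (p = 0.0239 from an exact null distribution, Bonferroni over 6 lags but not adjusted over genes). The time test of edgeR had a p adjusted over genes of 0.0994, which became 0.0159 without ZT18 replicate C. That library was also the lowest of all 18 for *Creb1*, *Atf1* and *Crtc3*. *Crtc3* ranged from 2.44 CPM (ZT18 replicate C) to 16.8 CPM (ZT6 replicate B), with means from 5.89 ± 3.41 CPM at ZT18 to 13.2 ± 3.21 CPM at ZT6. It passed JTK_CYCLE (exact p = 0.0319) and missed the time test (adjusted p = 0.233). With its 57.0% GC, *Crtc3* passed the time test in the fit with a GC offset (adjusted p = 0.0119). Per kilobase the CRTC genes changed places, with *Crtc1* at 13.2 ± 0.97 CPM per kb at ZT14 against 4.97 ± 1.08 for *Crtc2*, and at 0.50 ± 0.30 against 2.12 ± 0.57 at ZT2.

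*Sik3*, which with SIK1 and SIK2 acts on the CRTCs and on class IIa histone deacetylases, had the highest level per kilobase of exon among the 3 kinases at every timepoint but ZT6. It had 124, 114 and 155 CPM at ZT6, 89.9, 135 and 91.6 CPM at ZT2, and 91.0, 73.6 and 111 CPM at ZT10. At night it had 74.2, 76.5 and 57.3 CPM at ZT14, 57.2, 47.8 and 73.9 CPM at ZT18, and 71.9, 84.1 and 98.5 CPM at ZT22. The libraries of ZT6 overlapped those of ZT2 and lay above all the others, and each timepoint overlapped the next in the order of means. ZT6 exceeded ZT18 by 2.20-fold (log2 1.14 ± 0.22 SE), and the time test had an adjusted p of 0.00404. Inside the clusters *Sik3* was higher at ZT6 than at ZT10 by log2 0.51 ± 0.22 (SE), which did not pass (adjusted p = 0.423).

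*Sik2* had the fewest reads of the 9 genes, 7 to 316 per library or 0.332 to 12.1 CPM. Its replicates differed widely, with 2.04, 0.332 and 7.71 CPM at ZT6 and 4.77, 2.83 and 12.1 CPM at ZT18. The time test had an adjusted p of 0.286, and 0.0396 without ZT6 replicate C. The body of the gene overlaps that of *Ppp2r1b*. Without information on strand, reads from a stretch shared by 2 genes cannot be told apart, and whether any reads counted for *Sik2* are of this kind was not tested. Per kilobase *Sik1* and *Sik3* were level at ZT6 (15.2 ± 5.95 and 14.1 ± 2.28 CPM per kb), and at ZT22 *Sik3* stood at 9.10 ± 1.43 against 1.93 ± 0.29 for *Sik1*.

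The genes whose log2 CPM followed *Sik1* best over the 18 libraries, among 11185 genes with a mean of 5 CPM or more, were *Rgs16* (Pearson r = 0.950), *Bhlhe41* (0.947), *Pdcd4* (0.929), *Ptp4a1* (0.920) and *Nr1d2* (0.907). These values describe 18 libraries that share 3 clusters. After the mean of each cluster was subtracted they were 0.918, 0.907, 0.889, 0.895 and 0.850. *Rgs16*, a regulator of G-protein signalling that marks the dorsal SCN and is also in the SCN marker list, went from 336 ± 43.0 CPM at ZT6 to 54.9 ± 7.97 CPM at ZT18. *Bhlhe41* and *Nr1d2*, which encode the clock repressors DEC2 and REV-ERBβ, were highest at ZT6 too, at 663 ± 36.6 and 145 ± 49.6 CPM. *Rgs16*, *Bhlhe41* and *Pdcd4* passed the joint test inside the clusters (adjusted p = 0.00492, 0.00494 and 0.0343), and *Ptp4a1* and *Nr1d2* did not (0.0554 and 0.185). *Pdcd4* lost this call without any ZT2 or ZT14 library, ZT6 B, ZT10 A, ZT18 B or ZT22 B (adjusted p 0.0552 to 0.0991). Among the members the highest correlations with *Sik1* were those of *Sik3* (0.847, or 0.736 inside the clusters) and *Crem* (0.753, or 0.710).

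**Figure D5:**
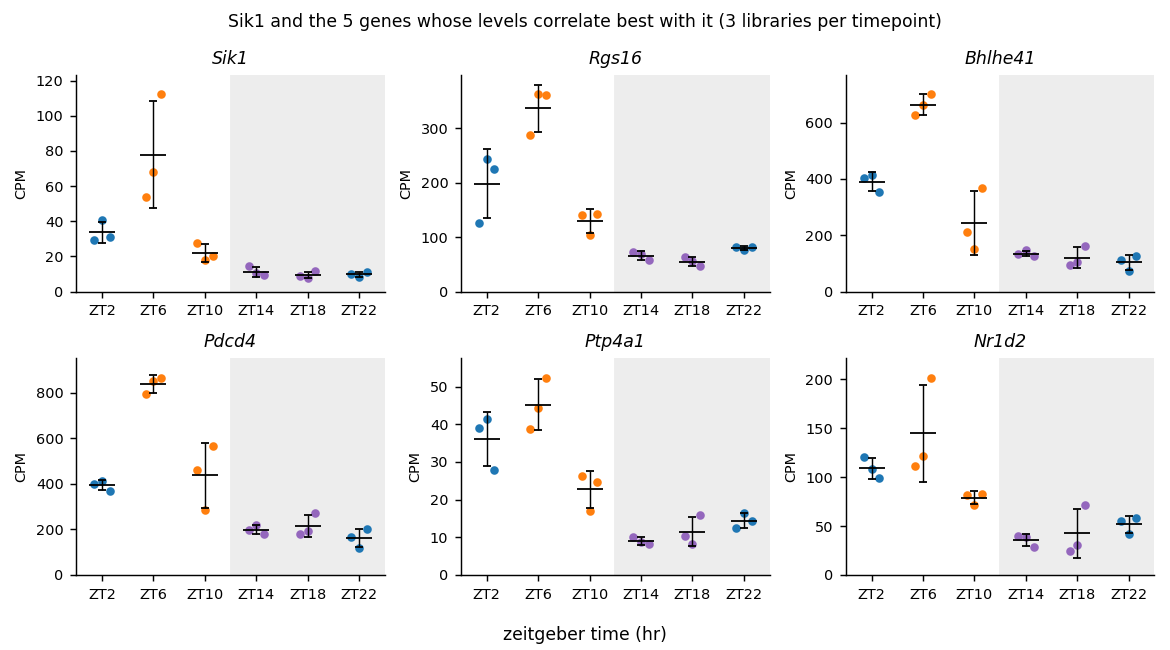
CPM (vertical axes, from 0) of *Sik1* and of the 5 genes with the highest correlation to it, with 1 point per library, mean and SD of 3 libraries, colours for the clusters and grey for the dark hours. All 6 genes had their highest mean at ZT6, and in each of them ZT2 lay above ZT22 in every library.

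Lists of pathway genes, 62 in all and chosen with earlier results of these data known, were matched to the table for 60. Of the 60, 42 changed with time. This count and those of the single lists below stand beside 44.0% of all genes tested that changed with time and 29.8% that were cycling. Among those with a mean of 5 CPM or more 39 of 51 passed (76.5%), against the 63.2% of all such genes given above. Their median log2 range between the highest and the lowest timepoint was 1.40, and that of all genes at this level was 1.31. The 8 members at this level had a median of 1.32.

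Of the kinases and phosphatases upstream of CREB and the CRTCs, 11 of 13 changed with time and 7 were cycling, with their highest means spread over 5 of the 6 timepoints. *Prkacb* and *Prkar1a*, a catalytic and a regulatory subunit of protein kinase A, were highest at ZT2 (769 ± 192 and 1502 ± 235 CPM) and lowest at ZT10 (271 ± 23.4 and 723 ± 110 CPM). *Prkaca*, another catalytic subunit, had the reverse order, with 123 ± 18.7 CPM at ZT10 and 63.8 ± 11.4 CPM at ZT2. *Rps6ka4*, the CREB kinase MSK2, went from 20.5 ± 4.06 CPM at ZT14 to 3.61 ± 0.29 CPM at ZT2.

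Of the LKB1 complex that activates the salt-inducible kinases, *Strada* (283 ± 24.3 CPM at ZT22 and 143 ± 14.3 at ZT6) and *Cab39* (89.7 ± 14.4 at ZT22 and 57.1 ± 7.40 at ZT18) changed with time, and *Stk11*, the kinase itself, did not (adjusted p = 0.113). Of the CREB-binding acetyltransferases, *Crebbp* changed (103 ± 15.5 CPM at ZT14 and 53.3 ± 10.6 at ZT10) and also passed between ZT14 and ZT18 (adjusted p = 0.0459), a call lost without any ZT14 library, ZT2 B, ZT6 B, ZT10 A, ZT18 B or C, or ZT22 B or C (adjusted p 0.0542 to 0.203), while *Ep300* did not pass the time test (adjusted p = 0.0856). Of 12 other kinases related to AMPK 7 changed. *Prkaa2*, a catalytic subunit of AMPK, was highest at ZT6 as *Sik1* was (93.8 ± 31.8 CPM against 23.2 ± 5.84 at ZT18), *Prkaa1* was highest at ZT2 (55.0 ± 6.33 CPM), and *Mark2* and *Brsk2* were highest at ZT14 (70.3 ± 7.73 and 60.1 ± 3.98 CPM) and lowest at ZT2.

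All 4 class IIa histone deacetylases, which are substrates of the SIKs, changed with time, against 63.2% of all genes with a mean of 5 CPM or more. *Hdac7* was close to the threshold (adjusted p = 0.0490). *Hdac4* was highest at ZT14 (133 ± 20.6 CPM), *Hdac5* at ZT10 (58.2 ± 11.3), *Hdac7* at ZT18 (36.2 ± 15.6) and *Hdac9* at ZT22 (58.4 ± 15.7), so the list had no common peak. Of 9 other basic leucine zipper factors related to CREB 6 changed. *Atf4*, the effector of the integrated stress response, was highest at ZT6 (123 ± 18.9 CPM, against 41.7 ± 4.89 at ZT2), *Atf2* and *Creb3* at ZT2 (226 ± 33.0 and 310 ± 52.5 CPM), and *Creb3l1* at ZT10 (77.1 ± 2.56 CPM, against 6.00 ± 1.31 at ZT22).

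Among 17 genes known to carry CREs 11 changed with time and 8 were cycling. Of the 11, 7 (63.6%) had their highest mean at ZT6, against 1753 of the 8343 genes (21.0%) that changed with time over the whole table. The list was chosen with earlier results of these data known, so its counts and ranges describe it and are not a test. The median log2 range of the 14 with a mean of 5 CPM or more was 2.52, compared with 1.31 for all such genes. *Vgf*, a secreted neuropeptide precursor, went from 200 ± 21.9 CPM at ZT6 to 22.7 ± 6.28 CPM at ZT22. The clock genes *Per2* (123 ± 60.0 and 10.9 ± 4.02 CPM) and *Per1* (70.0 ± 27.9 and 8.98 ± 0.20 CPM) and the immediate early gene *Junb* (14.6 ± 2.05 and 0.338 ± 0.150 CPM) were highest and lowest at the same timepoints. *Per1* was the 1 gene of the lists to pass the joint test inside the clusters (adjusted p = 0.0450), but not without any ZT10 or ZT14 library, ZT2 B or C, ZT6 B, ZT18 A or B, or ZT22 B or C (adjusted p 0.0605 to 0.111). Between ZT14 and ZT18, where *Sik1* had 11.3 ± 2.79 and 9.44 ± 1.91 CPM and was not called, 4 of the 17 passed with more RNA at ZT14, namely *Per1*, *Per2*, *Vgf* and *Egr1* (adjusted p = 0.0324, 0.0470, 0.0289 and 0.0242), against the 0.570% of all genes given above. All 4 calls were lost without any 1 of the 6 libraries compared, that of *Per1* also without ZT2 C or ZT22 C, and that of *Per2* also without ZT2 B or C, any ZT10 library or ZT22 C (adjusted p up to 0.127, 0.184, 0.158 and 0.121). *Egr1*, an immediate early gene whose highest mean was at ZT14 (78.0 ± 17.5 CPM), also passed for ZT14 and ZT22 together against ZT18 and ZT2 (adjusted p = 0.0463), a call lost without any ZT2 or ZT14 library, ZT6 B, ZT10 B, ZT18 A or B, or ZT22 B or C (adjusted p 0.0520 to 0.173).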

How the data were processed

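RNA of the laser-captured SCN was measured in 54 lane samples from 18 biological replicates, each amplified before sequencing. After trimming, the authors used GSNAP for alignment to mm10 and HTSeq 0.5.4p1 for counting per gene, and deposited raw counts with the lanes of a replicate combined, for 30031 genes. They also deposited a normalized signal, the counts divided by DESeq2 size factors for 31077 genes, in which 100% of values were whole multiples of 1 read (within 0.01 reads). Reads recovered from it were identical to the counts for 92.7% to 94.2% of shared genes with reads at ZT2, ZT14, ZT18 and ZT22, and for 8.72% to 12.1% at ZT6 and ZT10. For the 9 members they were identical in the former libraries, while at ZT6 and ZT10 the median per member was 78.4% (*Sik2*) to 97.6% (*Creb1*) of the counts. Results rest on the raw counts, and the recovered reads were tried as an alternative. Unused sample columns numbered 0.

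A gene was tested when more than 6 replicates held 1 read or more (18941 genes). CPM after TMM normalization and quasi-likelihood tests came from edgeR 4.0.16 (R 4.3.3), in a single model of all 18 replicates. The p-values were adjusted by the Benjamini–Hochberg method over all genes, with a threshold of 0.05. JTK_CYCLE was written anew in Python 3.11.15 (period 24 hr, 6 lags, Bonferroni over lags, no adjustment over genes), and cycling genes are those that passed it and the time test. Log2 CPM used a prior count of 2. In simulated data of 18941 genes the time test called 48 of 50 genes raised 4-fold at ZT6 alone and 30 of 50 lowered 4-fold, and 13 and 3 of 50 with 2-fold changes. Only 200 genes were changed there, whereas 44.0% of genes passed in the data. The adjustment over genes was therefore stricter in the simulation, and these counts do not give the share found in the data. DESeq2 1.42.0, limma 3.58.1 (cosinor), other normalizations and filters, the replicate letter as a block and leaving out each library were alternatives, and a GC offset (20 bins) was added after seeing the data. Symbols, matched for 97.4% of identifiers, and exons came from GENCODE M21 (GRCm38).

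The members, lists and tests were chosen with earlier results of these data known. Named genes are the 9 members, from each of 7 lists up to 4 genes with the smallest adjusted p of the time test plus any passing inside a cluster, the 5 genes most like *Sik1*, and neighbours of *Crtc1*. The result for 1 listed gene is not reported here. *Stk11* and *Ep300* were named outside this rule after their values were seen. Replicates of a timepoint differed by more than sampling noise (chi-square per gene 31.7 to 142 over 18 pairs). PCR copies were not removed by molecular identifiers, so read numbers overstate the molecules counted.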

Additional observations from a re-analysis of the deposited data

How the results depend on the processing

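The count of members changed with time (5) and cycling (5) was 5 or 6 under every alternative run, and no difference of a member reversed. Leaving out 1 library gave 5 to 6 members changed with time (*Crtc2* was added without ZT18 replicate C and *Sik2* without ZT6 replicate C), 5 to 6 cycling, 1 to 1 changed inside the clusters, 0 to 1 between ZT6 and ZT10, 0 to 0 between ZT14 and ZT18, 0 to 2 between ZT22 and ZT2, 0 to 0 for ZT14 plus ZT22 against ZT18 plus ZT2, and 36 to 42 of the pathway genes. Inside the clusters the count of 1 became 2 with DESeq2, with at least 10 counts in every replicate and with no filter, each time with *Crem* added. Between ZT22 and ZT2 it became 2 under these 3 settings and with the GC offset. For ZT14 plus ZT22 against ZT18 plus ZT2 the count of 0 became 2 with DESeq2 and 1 with at least 10 counts. With only the 6 libraries compared it was 0 between ZT6 and ZT10 and 0 between ZT22 and ZT2. The replicate block gave 0 in both of these comparisons, where *Sik1* had adjusted p = 0.0583 and 0.0623, and it moved none of the other counts by over 1.5 times. The letters do not pair the samples by anything the labels state: deviations of same-letter libraries correlated at −0.41 to 0.15 (45 pairs), and 7 of 18 libraries correlated best with their own letter. Of 420 member values under alternatives 389 kept their side of the threshold, 12 gained it and 19 lost it. Over all genes DESeq2 called 726 inside the clusters against 22 with edgeR, 231 against 9 between ZT6 and ZT10, 766 against 108 between ZT14 and ZT18, 33 against 6 between ZT22 and ZT2, and 418 against 28 for ZT14 plus ZT22 against ZT18 plus ZT2. The cause of these changes was not tested. Depth limits *Sik2* most, with 7 reads in its lowest library.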
